A study of Mus musculus with 10 samples.

Results

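The Myc network was followed through 10 genes, the rows of the count table whose gene symbol is Myc, Mycn, Mycl, Max, Mxd1, Mxd3, Mxd4, Mxi1, Mnt or Mlx. All 10 were found among the 18381 genes of the table. All 10 also passed the filter on low counts that left 14504 genes for testing.

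RNA was sequenced from 10 single first lower molars of wild-type C57BL/6JOlaHsd mouse embryos at embryonic day 14. From each of 5 embryos, numbered 1, 2, 3, 4 and 6, the right and the left molar were cultured for 6 h in hanging drops. One molar of the pair received 750 ng/ml of recombinant mouse IGF1, insulin-like growth factor 1, in PBS with bovine serum albumin. The other molar, the control, received PBS with albumin alone, so each embryo gave 1 IGF1 tooth and 1 control tooth, and the comparison asks what IGF1 changed within a pair. The p-values set the change within pairs against how that change varied over these 5 embryos, with the variation moderated over all genes. Nothing in the labels says that the embryos came from different litters, so the p-values describe these 5 embryos only.

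Myc, Mycn and Mycl are basic helix-loop-helix leucine zipper proteins that bind DNA only as dimers with Max and then raise the transcription of genes for growth and proliferation. The Mxd proteins, Mxi1 and Mnt compete for Max and bring corepressors to the same E-box sites, whose central letters are CACGTG. Mlx stands beside Max as the partner of a smaller branch, in which the sugar-sensing Mondo proteins and some of the Mxd proteins take part.

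With IGF1 the Myc and Mycn transcripts fell, and the other 8 genes of the network did not pass the test. Myc was 31.8% lower and Mycn 39.9% lower than in the paired control teeth, and both were lower in 5 of 5 embryos. Thus 2 of 10 members were called at an adjusted p under 0.05 in edgeR's quasi-likelihood test, both of them lower and 0 higher. Over all genes tested, 11.5% were called, 6.72% as higher and 4.76% as lower. In 1 of 10 members, Myc, every IGF1 tooth lay below every control tooth, which held for 3.03% of all genes tested. For Myc the nearest IGF1 and control teeth lay less than 1 count apart. In 0 of 10 members did every IGF1 tooth lie above every control tooth, against 4.21% of all genes. The median log2 fold change of the 10 members was -0.07, beside -0.0038 over all genes tested. These are whole teeth, so fewer cells of a type and less RNA per cell cannot be told apart.

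**Figure D1:**
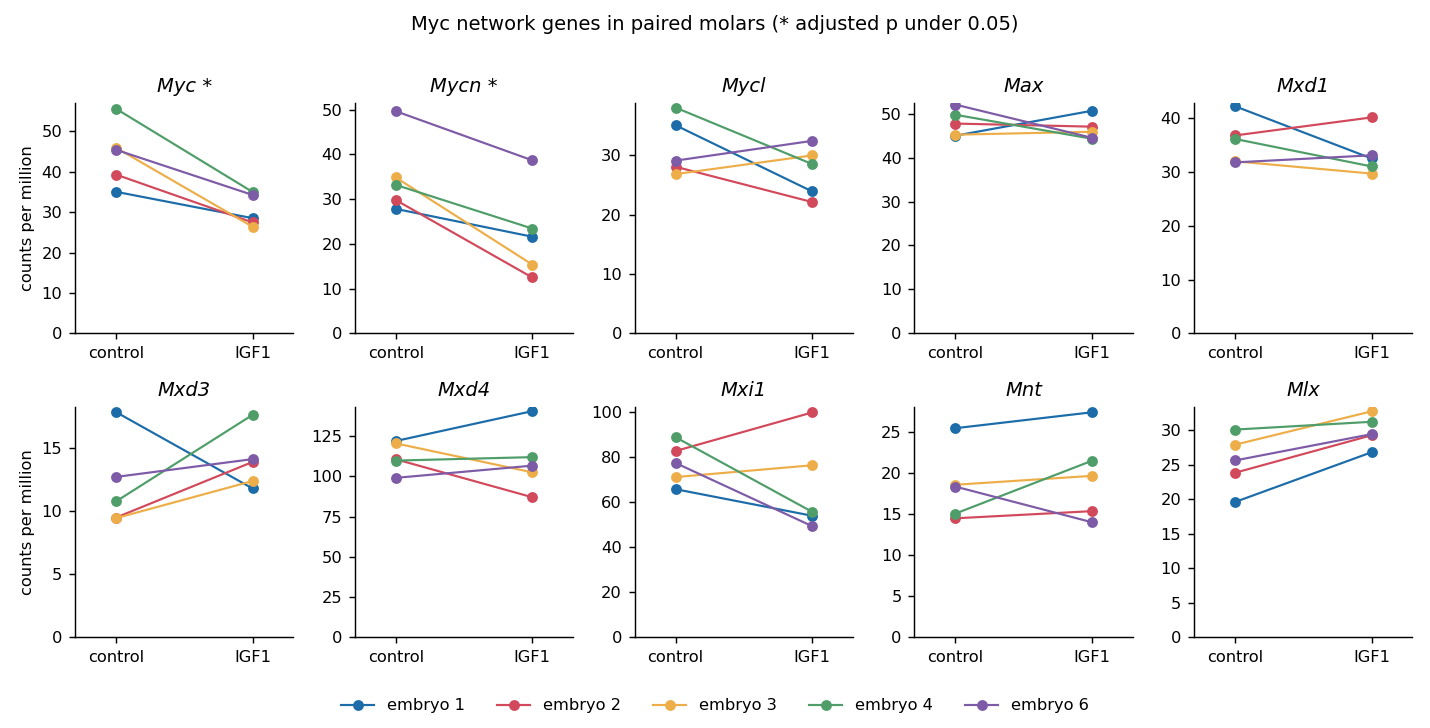
Normalised abundance (CPM, linear axes that start at 0) of the 10 network genes in control and IGF1 molars; each line joins the paired teeth of 1 embryo, n = 5 pairs. All 5 lines fall for Myc and for Mycn, all 5 rise for Mlx, and the lines cross or run level in the other panels.

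Myc (ENSMUSG00000022346, chr15:61985391-61990374, plus strand, GRCm38) is the founding activator of the family and an early response gene of many growth factors. Abundance was measured in CPM, counts scaled to a common library size. In the control teeth of embryos 1, 2, 3, 4 and 6 that of Myc was 35.0, 39.3, 45.9, 55.6 and 45.4 CPM. In the IGF1 teeth of the same embryos it was 28.5, 27.5, 26.4, 35.0 and 34.3 CPM. The highest IGF1 tooth, that of embryo 4 at 35.01 CPM, came just under the lowest control tooth, that of embryo 1 at 35.04 CPM. The groups did not overlap, but 1 count was worth 0.141 and 0.344 CPM in these teeth, more than that gap. The group means were 44.3 ± 7.79 CPM in controls and 30.3 ± 4.01 CPM with IGF1 (SD, n = 5 each). The log2 fold change was -0.55 (SE 0.094, 95% confidence interval -0.76 to -0.34), with an adjusted p of 0.00389 in edgeR's quasi-likelihood test. Within embryos the log2 difference ran from -0.29 in embryo 1 to -0.79 in embryo 3, with an SD of 0.20. Raw counts of Myc were 99 to 392 per tooth, and the low ones belonged to the shallow pair from embryo 1.

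Mycn (ENSMUSG00000037169, chr12:12936093-12941914, minus strand) encodes the N-Myc protein, the family member best known from embryonic progenitor cells and from neuroblastoma. Its abundance in the control teeth of embryos 1, 2, 3, 4 and 6 was 27.8, 29.8, 34.8, 33.2 and 49.7 CPM. With IGF1 it was 21.6, 12.5, 15.4, 23.4 and 38.7 CPM. Embryo 6 had the highest level in both groups, and its IGF1 tooth exceeded 4 of the 5 control teeth, so the groups overlapped although each IGF1 tooth was below its own control. The group means were 35.1 ± 8.62 CPM and 22.3 ± 10.2 CPM (SD, n = 5 each). For Mycn the log2 fold change was -0.74 (SE 0.149, 95% confidence interval -1.06 to -0.41), with an adjusted p of 0.00976 in edgeR's quasi-likelihood test. The decrease was uneven, at -1.24 and -1.16 in embryos 2 and 3 but -0.36, -0.50 and -0.36 in embryos 1, 4 and 6. When the pairing by embryo was left out of the model, the adjusted p of Mycn was 0.163 and the call was lost, whereas Myc was called in each of the 10 alternative settings.

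Mycl (ENSMUSG00000028654, chr4:122995652-123002485, plus strand), which encodes L-Myc, the weakest activator of the family, did not pass the test. Its control values ran from 26.8 to 38.0 CPM and its IGF1 values from 22.1 to 32.4 CPM, with wide overlap. The log2 fold change was -0.18 (95% confidence interval -0.45 to 0.09), and Mycl was lower in 3 embryos and higher in embryos 3 and 6. Leaving out 1 embryo moved the value to between -0.27 without embryo 3 and -0.11 without embryo 1.

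Levels of different genes were compared as CPM per kilobase of the longest annotated transcript. On this scale Myc contributed most to the family in every control tooth, with 42.0% to 50.5% of the summed level of Myc, Mycn and Mycl. Mycn gave 26.4% to 40.1% and Mycl 17.9% to 28.3% of that sum. The sum itself was 41.0 ± 5.52 CPM per kilobase in controls and 29.1 ± 6.14 with IGF1 (SD, n = 5 each), and these ranges, 35.4 to 47.1 and 22.7 to 38.4, overlapped through embryo 6. The share of Myc was 45.2 ± 4.89% with IGF1 and 46.1 ± 3.82% in controls (SD, n = 5 each). In the IGF1 teeth of embryos 2 and 3, where Mycn fell most, Mycn gave 20.5% and 22.5% of the sum, less than Mycl at 27.8% and 33.4%.

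Among all 10 members the control medians per kilobase ran in the order Max (24.6), Mxd4 (23.9), Myc (19.4), Mxi1 (15.3), Mlx (13.0), Mycn (12.4), Mycl (8.31), Mxd1 (7.75), Mxd3 (6.19) and Mnt (3.99). Each gene overlapped its neighbour in that order, so only steps across several places stand clear of the spread between teeth. In the IGF1 teeth Myc had a median of 12.2, below Mlx at 15.0, and Mycn had a median of 8.08, next to Mycl at 8.14. The order depends on the length used, since with the union of all exons Myc came first among the controls, at 16.7, ahead of Max at 13.3.

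**Figure D2:**
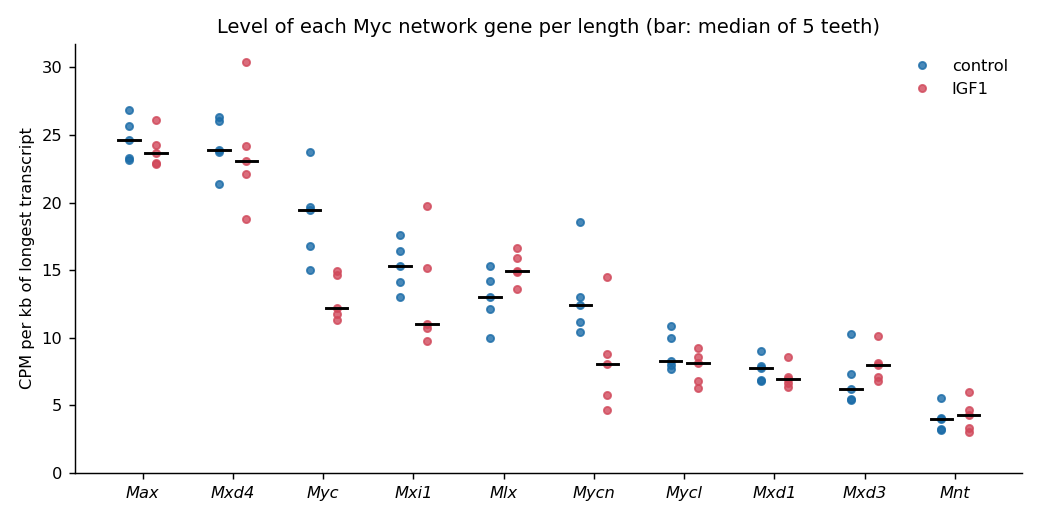
Level of each network gene per length, in CPM per kilobase of the longest transcript, for control (blue) and IGF1 (red) teeth. Points are single teeth, 5 per group, and bars are group medians; Myc and Mycn drop from medians of 19.4 and 12.4 to 12.2 and 8.08, while those of Max are 24.6 and 23.6.

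Max (ENSMUSG00000059436, chr12:76937269-76962201, minus strand), the obligate partner of the Myc proteins, did not pass the test. Its control values were 45.0, 47.8, 45.2, 49.8 and 52.1 CPM in embryos 1, 2, 3, 4 and 6. Its IGF1 values were 50.7, 47.1, 45.9, 44.3 and 44.5 CPM. The IGF1 values ran from inside the control range to just below it, and the sign differed between embryos. Its log2 fold change was -0.05, and the 95% confidence interval of -0.24 to 0.13 does not reach the value fitted for Myc. With 1 embryo left out, the value for Max lay between -0.097 (without embryo 1) and -0.011 (without embryo 6).

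Mxi1 (ENSMUSG00000025025, chr19:53310518-53375810, plus strand) antagonises Myc and is also known as a gene that hypoxia can induce. Its control abundance was 65.6, 82.5, 71.0, 88.6 and 77.2 CPM in embryos 1, 2, 3, 4 and 6. With IGF1 it was 53.9, 99.6, 76.2, 55.6 and 49.3 CPM. The IGF1 teeth spread both above and below the controls, with the highest value of all in embryo 2 and the lowest in embryo 6. Its fitted log2 fold change was -0.24 (95% confidence interval -0.54 to 0.06, adjusted p 0.307 in edgeR's quasi-likelihood test). The pairs moved in opposite directions, at 0.27 and 0.10 in embryos 2 and 3 and -0.28, -0.67 and -0.65 in embryos 1, 4 and 6. Leaving out 1 embryo moved the fitted value to between -0.37 without embryo 2 and -0.12 without embryo 4.

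The remaining antagonists did not pass the test either. Mxd4 (ENSMUSG00000037235), the most abundant antagonist per length, ran from 99.0 to 122.0 CPM in controls and from 87.0 to 140.5 CPM with IGF1, and its log2 fold change was -0.05 (-0.25 to 0.14). Mxd1 (ENSMUSG00000001156), the first described Mxd protein and a gene of differentiating cells, ran from 31.8 to 42.3 CPM and from 29.7 to 40.2 CPM, with a log2 fold change of -0.09 (-0.30 to 0.12). For Mxd4 the IGF1 range enclosed the control range, and for Mxd1 the ranges overlapped. With 1 embryo left out, the value for Mxd1 lay between -0.15 (without embryo 2) and -0.035 (without embryo 1).

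Mxd3 (ENSMUSG00000021485), which unlike its relatives is expressed in dividing cells, had values of 9.45 to 17.9 CPM in controls and 11.8 to 17.6 CPM with IGF1. It was higher with IGF1 in 4 of 5 embryos, and embryo 1, the shallowest pair, went the other way. Its log2 fold change was 0.28 (95% confidence interval -0.11 to 0.67), or 0.45 without embryo 1 and 0.16 without embryo 4, and it was not called in any of these fits. Mnt (ENSMUSG00000000282), the broadly expressed repressor that shares Max with Myc in most cells, ran from 14.5 to 25.4 CPM and from 14.0 to 27.4 CPM, with a log2 fold change of 0.08 (-0.21 to 0.38). The signs of Mxd4 and Mnt changed when embryo 2 or embryo 4, respectively, was left out.

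Mlx (ENSMUSG00000017801, chr11:101087277-101092207, plus strand) was the one member that was higher in 5 of 5 embryos. Its control values were 19.6, 23.8, 27.9, 30.1 and 25.6 CPM in embryos 1, 2, 3, 4 and 6. The IGF1 values were 26.8, 29.2, 32.7, 31.2 and 29.4 CPM. Each IGF1 tooth was above its own control, by a log2 difference of 0.45 in embryo 1 and of only 0.05 in embryo 4, and the groups overlapped. For Mlx the log2 fold change was 0.23 (SE 0.094, 95% confidence interval 0.03 to 0.44), with an unadjusted p of 0.0312 and an adjusted p of 0.141 in edgeR's quasi-likelihood test, so Mlx was not called.

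Several of these genes share exon bases with a gene on the opposite strand, and strand use in the counting is not given in the sources used here. Mlx shares 385 bases with Psmc3ip, which had a log2 fold change of 0.40 (adjusted p 0.0993 in the same fit). Mxd3 shares 105 bases with Prelid1, which rose by 0.41 on the log2 scale (adjusted p 0.0300). Mxi1 and Mxd4 share 194 and 514 bases with annotated genes that have no row in the table. The part of these neighbours in the values of the members was not tested.

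**Figure D3:**
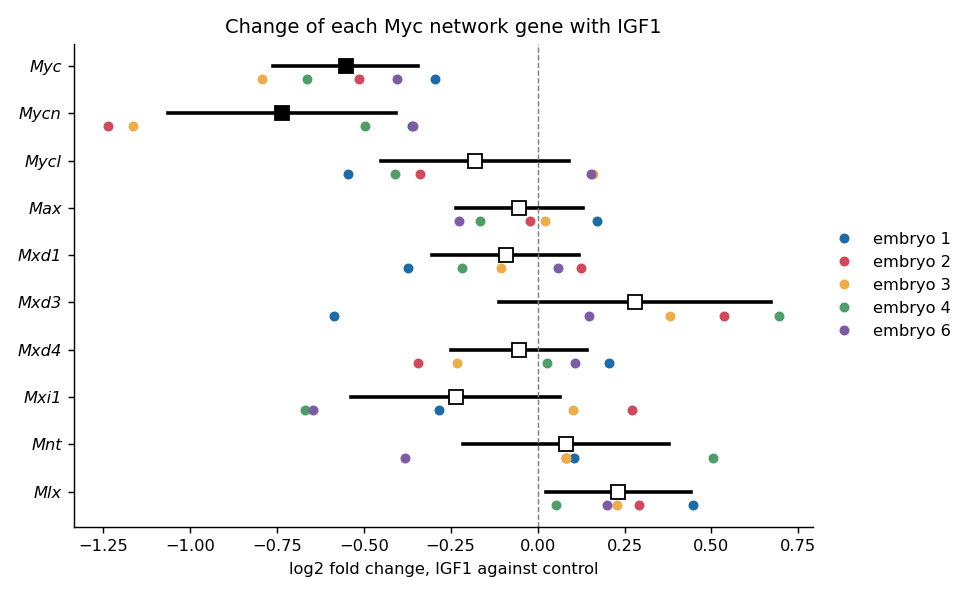
Log2 fold change of each network gene with IGF1 against control. Squares are the fitted values (filled where the adjusted p was under 0.05), lines their 95% confidence intervals, and coloured points the log2 differences of the 5 embryos; only the intervals of Myc, Mycn and Mlx leave out 0.

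The genes of the hypoxia response and the markers of the tissue layers were read beside these results. Both kinds of list were drawn up with earlier results of the same teeth in view. Their counts are therefore not independent evidence of a direction. Of 17 hypoxia response genes tested, 16 rose and 0 fell (94.1% called, beside 11.5% over all genes tested), with a median log2 fold change of 1.68. The strongest were Ankrd37 at 2.90, the mitophagy receptor Bnip3 at 2.20, Higd1a at 2.14 and the prolyl hydroxylase Egln3 at 2.10. The summed level of the list ran from 856 to 1344 CPM in controls and from 1706 to 5759 CPM with IGF1. The median of the list by embryo was highest in embryos 2 and 3, at 2.75 and 2.27, and lower in embryos 1, 4 and 6, at 0.61, 0.82 and 1.14. Embryos 2 and 3 were also the pairs in which Mycn fell most and in which Mxi1 lay above 0. The part of this response in the changes of Mycn and Mxi1 was not tested.

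**Figure D4:**
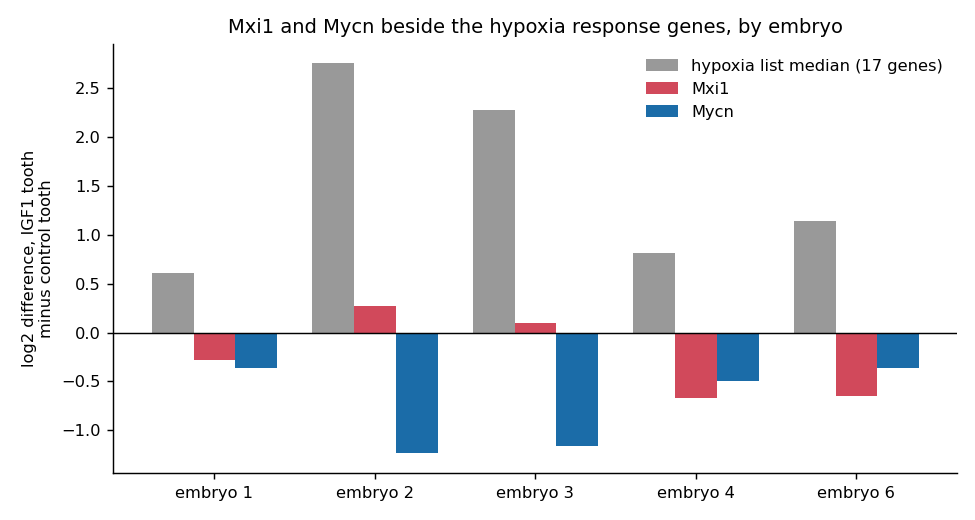
Log2 difference between the IGF1 and the control tooth of each embryo for the median of 17 hypoxia response genes (grey), Mxi1 (red) and Mycn (blue). Embryos 2 and 3 have the tallest grey bars (2.75 and 2.27), Mxi1 bars above 0 (0.27 and 0.10) and the longest Mycn bars below 0 (-1.24 and -1.16).

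The samples expressed the markers of both layers of a molar germ, with summed levels in controls of 1590 to 2338 CPM for 10 dental epithelium markers and 7131 to 9250 CPM for 10 dental mesenchyme markers. With IGF1 the sums ran from 1896 to 2481 CPM and from 6475 to 9060 CPM. Over all genes tested, 6.72% were called higher and 4.76% lower. Of the 10 epithelium markers 1 rose (Krt5, log2 fold change 0.43) and 0 fell, a share near that of all genes, and the list's median was 0.01. Of the 10 mesenchyme markers 3 fell (Pdgfra at -0.53, Vim at -0.42 and Pdgfrb at -0.32) and 0 rose, with a median of -0.12 that was below 0 in 5 of 5 embryos. Further, 1 of 5 endothelial markers (Cdh5), 1 of 4 macrophage markers (Csf1r) and 2 of 3 erythroid markers (Hba-a1 and Hbb-bt) fell. The medians of these lists were -0.25, -0.29 and -0.52, each below 0 in 5 of 5 embryos. The glial genes Sox10 and Foxd3 and the muscle genes Myod1, Myog and Acta1 did not pass the filter on low counts. The part of tissue composition in the decrease of Myc and Mycn was not tested.

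The genes around the network were read from the same fit. Their lists, from the partners to the Mlx and Mondo targets, were also drawn up with earlier results of the same teeth in view. Of 13 partners and cofactors tested, 2 rose and 0 fell, with a median log2 fold change of 0.04. That is 15.4% called, close to the 11.5% over all genes tested. These were Ruvbl2, an ATPase of the chromatin complexes that Myc recruits, at 0.42, and Actl6a, an actin-like subunit of the same complexes, at 0.33. The Mlx partner Mlxip and the Max partner Mga were in the list and did not pass the test, and Mlxipl did not pass the filter. Of 9 genes that control the turnover of Myc protein, 1 rose and 0 fell, with a median of 0.11, and the 11.1% called is also near the share over all genes. The gene was Skp2, a ubiquitin ligase subunit that targets Myc, at 0.39 (SE 0.091, adjusted p 0.0207 in edgeR's quasi-likelihood test). These calls were narrow: Ruvbl2 was not called without embryo 1, 2, 4 or 6 (adjusted p 0.0573 to 0.0650), Actl6a not without embryo 1, 3, 4 or 6 (0.0704 to 0.147) and Skp2 not without embryo 1, 4 or 6 (0.0687 to 0.0863). Without the embryo block the adjusted p was 0.133 for Actl6a and 0.0746 for Skp2, and in the DESeq2 Wald test that of Actl6a was 0.0595.

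Of the 51 genes in 4 lists of targets that Myc is known to activate, 17 rose and 0 fell. That is 33.3% called, beside 11.5% over all genes tested, and the median of all 51 was 0.11. These lists were drawn up with earlier results of the same teeth in view, so their counts are not independent evidence of a direction. By embryo the median of the 51 genes was 0.25, 0.11, -0.0025, 0.20 and 0.39 in embryos 1, 2, 3, 4 and 6, above 0 in 4 of 5 embryos.

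By list, of 24 ribosome and nucleolus genes 2 rose (8.33%, under the 11.5% called over all genes), with a median of 0.08, namely Nolc1, a nucleolar chaperone of small nucleolar ribonucleoproteins, at 0.28 (adjusted p 0.0297) and Fbl, the methyltransferase fibrillarin, at 0.36 (adjusted p 0.0317). Nolc1 was not called when any 1 of embryos 1, 2, 3, 4 and 6 was left out (adjusted p 0.0534 to 0.120) or without the embryo block (0.233), nor by the DESeq2 Wald test (0.0665), and Fbl was not called without embryo 1, 2, 4 or 6 (0.0700 to 0.123) or without the block (0.140). Of 9 polyamine and nucleotide genes 5 rose, with a median of 0.38, and without embryo 6 the count was 3. Of 8 mitochondrial and one-carbon genes 4 rose, with a median of 0.19, and of 10 cell cycle and translation genes 6 rose, with a median of 0.29, or 2 without the embryo block.

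Odc1, the ornithine decarboxylase that starts polyamine synthesis and a classic Myc target, was at 73.5, 53.2, 61.7, 83.7 and 76.9 CPM in the controls of embryos 1, 2, 3, 4 and 6. With IGF1 it was at 89.3, 130.9, 85.2, 99.1 and 125.2 CPM. Every IGF1 tooth lay above every control tooth, and the log2 fold change was 0.60 (SE 0.135, adjusted p 0.0156 in edgeR's quasi-likelihood test, 0.0618 without embryo 6). Others of its list were Nme1, a nucleoside diphosphate kinase, at 0.71, the spermidine synthase Srm at 0.68, Cad, the enzyme that starts pyrimidine synthesis, at 0.57 and the CTP synthase Ctps at 0.38. The call of Ctps was lost without embryo 2, 4 or 6 (adjusted p 0.101 to 0.166), without the embryo block (0.222) and without the filter on low counts (0.0505).

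Shmt2, the mitochondrial serine hydroxymethyltransferase, had the largest change of the 4 lists, at 0.95 (SE 0.132, adjusted p 0.00127 in edgeR's quasi-likelihood test). Its level was 46.6 to 54.6 CPM in controls and 78.9 to 143.6 CPM with IGF1, so that the groups were well apart. The mitochondrial chaperones Hspe1 and Hspd1 rose by 0.44 and 0.42 on the log2 scale, and the prohibitin Phb by 0.36. Phb was not called without embryo 1, 2, 4 or 6 (adjusted p 0.0580 to 0.136) or without the embryo block (0.158). In the cell cycle list the transferrin receptor Tfrc rose by 0.75, the replicative helicase subunits Mcm5 and Mcm4 by 0.51 and 0.42, and Ccnd2, a D-type cyclin, by 0.39. Without the embryo block Mcm5 and Ccnd2 were not called (adjusted p 0.0566 and 0.120).

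Among 9 genes that Myc is known to repress, 2 rose and 0 fell (22.2%, beside 6.72% called higher over all genes tested), with a median of 0.21. By embryo the list median was -0.04, 0.25, 0.39, -0.25 and 0.10 in embryos 1, 2, 3, 4 and 6. It lay above 0 in 3 of 5 embryos, and 5 of the 9 genes had a log2 fold change above 0. This list, too, was drawn up with earlier results in view, so its count is not independent evidence of a direction. Cdkn1c, an inhibitor of cyclin-dependent kinases, was at 206.7 to 244.5 CPM in controls and 264.5 to 400.6 CPM with IGF1, and rose by 0.49 on the log2 scale (SE 0.082, adjusted p 0.00345 in edgeR's quasi-likelihood test). Ndrg1, which hypoxia also induces, rose by 1.69 (SE 0.377, adjusted p 0.0158). Its IGF1 values were 372.3 and 193.6 CPM in embryos 2 and 3, against 69.1, 75.5 and 30.4 CPM in embryos 1, 4 and 6. The hypoxia list had its highest medians in embryos 2 and 3 too, and its part in the change of Ndrg1 was not tested.

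In the Mlx branch, 1 of 3 tested target genes of Mlx and the Mondo proteins fell and 0 rose, beside 4.76% called lower over all genes tested, and without embryo 4 the count called was 2. It was Txnip, an inhibitor of thioredoxin and of glucose uptake whose transcription follows the supply of sugar. Txnip stood at 230.2, 213.0, 165.7, 146.9 and 160.8 CPM in the controls of embryos 1, 2, 3, 4 and 6. In the IGF1 teeth it stood at 90.1, 78.8, 88.7, 80.0 and 69.4 CPM. All IGF1 teeth were below all controls, and the log2 fold change was -1.15 (SE 0.094, adjusted p 4.02e-05 in edgeR's quasi-likelihood test), while Mlx itself was not lower in any pair.

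**Figure D5:**
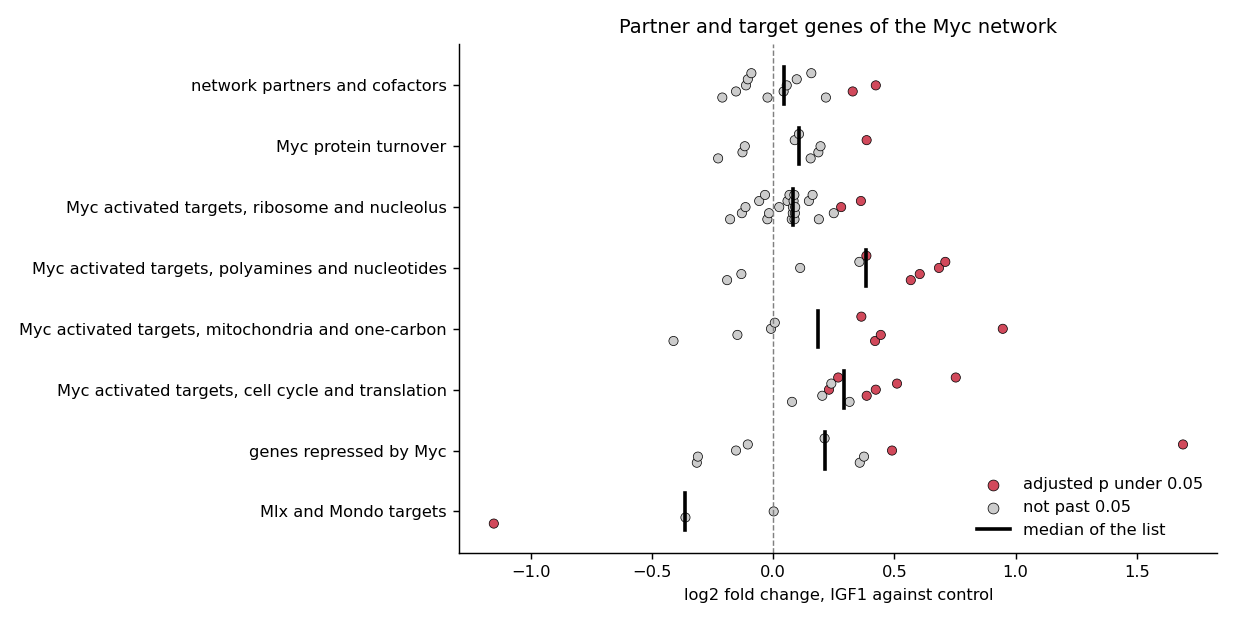
Log2 fold change with IGF1 of the partner, turnover and target genes of the Myc network, 1 point per gene and 1 row per list (red, adjusted p under 0.05; grey, not past it; black bars, list medians). All 17 red points of the 4 activated lists lie to the right of 0, and the only red point on the left is Txnip at -1.15.

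The E-box letters were looked up in the RefSeq promoter windows of GRCm38.p6, from 250 bases before to 50 bases after each gene start. A window was found for 9 of 10 members, all but Myc. The letters CACGTG, which read the same on both strands, occurred in the windows of 4 of these 9 genes, namely Max, Mxd4, Mnt and Mlx, beside 8.09% of the 27025 genes with a window. Those 27025 include genes that were not tested here, whereas all 10 members were tested, so the sets are unlike. The same letters occurred in 15 of 44 activated target genes with a window (34.1%). Among all 51 activated targets, which include genes without a window, 33.3% were called higher, and no test compared the shares. Of the 15 targets with the letters, 5 were called higher (Cdk4, Eif4a1, Hspd1, Nme1 and Phb). Of these, Cdk4 was not called without embryo 1, 4 or 6 (adjusted p 0.0951 to 0.123), Eif4a1 not without embryo 1, 2, 4 or 6 (0.0740 to 0.193) and Phb not without embryo 1, 2, 4 or 6 (0.0580 to 0.136), and all 3 were lost without the embryo block (0.101, 0.0877 and 0.158). Eif4a1 was also not called without the filter on low counts (0.0507). A match describes the sequence and not binding. The stretches below show the match of each of the 4 members and 1 match in each of 3 of these called targets, read 5′ to 3′ on the strand of the gene, with the E-box letters in capitals. Each of the 4 members has 1 match, the Cdk4 window has 4, of which the one farthest from the gene start is shown, and Nme1 has 1 in each of 2 windows, of which one is shown. The stretches lie at chr12:76962234-76962263 (Max, minus), chr5:34187902-34187951 (Mxd4, minus), chr11:74830779-74830828 (Mnt, plus), chr11:101087228-101087277 (Mlx, plus), chr11:93968273-93968322 (Nme1, minus), chr1:55088296-55088345 (Hspd1, minus) and chr10:127063341-127063390 (Cdk4, plus).
Max: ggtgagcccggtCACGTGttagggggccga
Mxd4: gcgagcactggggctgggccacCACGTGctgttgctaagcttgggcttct
Mnt: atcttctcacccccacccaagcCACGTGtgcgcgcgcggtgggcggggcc
Mlx: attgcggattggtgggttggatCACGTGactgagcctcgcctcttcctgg
Nme1: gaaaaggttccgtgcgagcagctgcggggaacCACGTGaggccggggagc
Hspd1: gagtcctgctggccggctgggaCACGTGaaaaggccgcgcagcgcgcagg
Cdk4: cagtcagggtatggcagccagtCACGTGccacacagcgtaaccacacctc

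None of the members with an E-box in this window was called, and of the called members only Mycn has a window. The Mycn window holds no CACGTG. It holds the letters TTTGGCGC, a form of the site of E2F factors, at 2 places, which begin 183 and 168 bases before the gene start. These letters were chosen after the window was read, and either they or their reverse complement GCGCCAAA occur in 0.585% of all genes with a window. The stretch below is chr12:12941991-12942040 on the minus strand, with both matches in capitals, shown because Mycn was the member that fell most.
Mycn: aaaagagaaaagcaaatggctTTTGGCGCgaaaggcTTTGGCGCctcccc

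The genes whose pattern over the 10 teeth was most like that of 3 members were found by Pearson's r of log2 CPM, as a description over teeth that share embryos, treatment and depth. Closest to Myc were Sgpl1 (r = 0.971), Zzef1 (0.963) and Gpatch3 (0.963). Closest to Mycn were Fgf3 (0.974), Penk (0.972) and Fgf20 (0.966). Closest to Mxi1 were Nfxl1 (0.960), Rnf144b (0.949) and Napb (0.933).

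Fgf3, a fibroblast growth factor of the tooth signalling centre and mesenchyme, stood at 13.4, 10.2, 18.4, 16.5 and 27.1 CPM in the controls of embryos 1, 2, 3, 4 and 6. With IGF1 it stood at 5.47, 2.14, 2.41, 4.94 and 23.3 CPM. As with Mycn, embryo 6 was the highest in both groups and embryos 2 and 3 were the lowest with IGF1. Fgf3 was picked for its likeness to Mycn over these same teeth, so the shared order follows from that choice. The log2 fold change of Fgf3 was -1.55 (adjusted p 0.0116 in edgeR's quasi-likelihood test). Penk, which encodes proenkephalin, fell by 0.57 on the log2 scale (adjusted p 0.00517 in the same test). Fgf20 had a log2 fold change of -1.14 without passing that test (adjusted p 0.120). Its raw counts were 4, 8, 24, 12 and 32 in the controls of embryos 1, 2, 3, 4 and 6. With IGF1 they were 3, 2, 3, 11 and 22, so its r with Mycn and its fold change rest on few reads.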

How the data were processed

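Single molars in culture were sequenced as RNA, 5 pairs from 5 embryos. The submitters' processing notes name FastQC 0.11.8, Trimmomatic 0.39, Salmon 0.99.0, DESeq2 and the build GRCm38, without their roles. The authors deposited 1 table of estimated counts per gene, made with Salmon as its name says, which held only whole numbers (0 values were not whole) and only genes with a total of at least 10. The transcript set and the use of strand are not given in the sources used here. Column names gave each sample's treatment and embryo.

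Total counts were 2845773 to 8403151 in control teeth and 3456634 to 8763113 in IGF1 teeth, with embryo 1 lowest in both, so 1 count was worth 0.115 to 0.344 CPM. Of the 18381 gene identifiers, 18287 were found in GENCODE M21, which gave symbols, positions and lengths, and 94 were not.

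Genes were filtered with filterByExpr, scaled by TMM and tested with edgeR 4.0.16 (R 4.3.3, limma 3.58.1) by the quasi-likelihood F test with embryo as a replicate block. P-values were adjusted by Benjamini-Hochberg over the 14504 genes tested, and a gene was called under 0.05. Pairing follows the labels, by which the right and left molars come from 1 embryo. Teeth of 1 embryo deviated from their group means with correlations of 0.319, 0.208, -0.0389, 0.170 and 0.313 in embryos 1, 2, 3, 4 and 6, and the median between different embryos was -0.0463. CPM values use TMM library sizes, and the log2 differences by embryo a prior count of 2. Pairs of replicates differed by 4.53 to 19.6 chi-square units per degree of freedom, so none was a repeat of another. The fit was tested on simulated counts before use.

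Alternatives were a fit without the block, DESeq2 1.42.0 size factors, its Wald test, no filter, at least 10 counts in all 10 samples, and each embryo left out in turn. The members and gene lists were chosen with earlier results of these data known. Named genes are all members, up to 4 genes per pathway list with the largest change among those called and moved one way in all 5 embryos, and the 3 genes most like Myc, Mycn and Mxi1; the marker genes named as fallen or risen are those past the threshold, Fbl, Ctps, Phb, Cdk4 and Eif4a1 were named after their values were seen, and the neighbours Psmc3ip and Prelid1 were chosen for their position. Outside this rule, Mlxip, Mlxipl and Mga were named as direct partners of Mlx or Max, and the glial and muscle genes as markers that did not pass the filter. Python 3.11.15 made tables and figures.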

Additional observations from a re-analysis of the deposited data

Results flagged for a closer look

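In 5 of 74 groups of 5 teeth, over 37 named genes, 1 tooth stood apart from the other 4 by more than Dixon's 95% critical ratio of 0.71. Chance alone gives about 1 in 20 groups, which is 3.7 here. None of the 5 concerned a member of the Myc network. In the control of embryo 2, Mcm5 was at 67.4 CPM against 89.3 to 90.9 CPM in the other controls (ratio 0.933), and Ruvbl2 was at 42.2 CPM against 55.0 to 58.6 CPM (ratio 0.782). Actl6a was at 58.8 CPM in the control of embryo 6, against 48.8 to 50.2 CPM (ratio 0.857). Shmt2 was at 143.6 CPM in the IGF1 tooth of embryo 2, against 78.9 to 93.9 CPM (ratio 0.768). Egln3 was at 24.0 CPM in the control of embryo 1, against 8.98 to 11.4 CPM (ratio 0.842). The genes most like Myc, Mycn and Mxi1 were not in this check, and no ratio was taken for them. Among them, Fgf3 was at 23.3 CPM in the IGF1 tooth of embryo 6, against 2.14 to 5.47 CPM in the other IGF1 teeth. Penk was at 159.8 CPM in the control of embryo 6, against 108.7 to 119.7 CPM in the other controls.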

How the results depend on the processing

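Of 100 values of the 10 members under 10 alternatives, 97 kept their direction and their side of the threshold. The log2 fold change of Myc ran from -0.60 to -0.49 and its adjusted p from 0.00131 to 0.0247. That of Mycn ran from -0.85 to -0.61 with an adjusted p of 0.000700 to 0.163, the last without the replicate block, where its call was lost. Mxd4 turned to 0.0198 without embryo 2 (-0.11 to 0.0198 over the embryos left out) and Mnt to -0.0285 without embryo 4 (-0.0285 to 0.19); neither was called in any setting, and the cause of the turn was not tested. Leaving out the replicate block, 887 genes were called instead of 1666, with 1 member, 1 partner or cofactor, 0 turnover genes, 0 ribosome and nucleolus genes and 2 cell cycle and translation genes. With an embryo left out, which also leaves fewer teeth, 986 to 1602 genes were called, with 0 to 1 partners or cofactors, 0 to 1 turnover genes, 0 to 1 ribosome and nucleolus genes, 3 to 6 polyamine and nucleotide genes and 1 to 2 Mlx and Mondo targets. The DESeq2 Wald test called 1 ribosome and nucleolus gene. Of 269 values of the named list genes, 220 kept direction and call, 49 lost the call and 0 turned. The pair from embryo 1 was the shallowest; Mxd3 had the lowest counts of the members (41 to 125 per tooth) and the largest SE (0.177).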
